A study of Mus musculus with 2 samples.

Results

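The genes described here, 10 in all, are used to tell brain microglia from macrophages at the borders of the nervous system, and were followed in single cells of the mouse neurohypophysis (NH), the posterior lobe of the pituitary. They were chosen by name, as 6 genes of microglia (*Tmem119*, *P2ry12*, *P2ry6*, *Fcrls*, *Cx3cr1* and *Sall1*) and 4 genes of border macrophages (*Mrc1*, *Pf4*, *Ms4a7* and *Lyz2*), here called microglia members and border members. All 10 were found among the 27998 genes of the count matrices and among the 15025 genes of the deposited table of cluster means. The tissue came from untreated male C57BL/6 mice of 3 months of age, dissected with some intermediate lobe (IL), pooled from 5 mice each into 2 pools, dissociated with Liberase TM and Papain, and sequenced with 10x Chromium version 2 chemistry. Each pool is a sample and all mice shared this single condition, so the values below describe levels in cell types and not an effect of a treatment. Each captured mRNA molecule carried a unique molecular identifier (UMI), and the limits of the study left 273 cells of pool 1 and 255 cells of pool 2, with 699676 and 726706 UMIs. Macrophage/microglia were 95 of these cells, 41 in pool 1 and 54 in pool 2. The deposited table splits them into 2 clusters, named there microglia a/macrophage (69 cells) and microglia b/macrophage (26 cells), here called cluster a and cluster b. The clusters were built by the authors on variable genes that may include the members, so that differences of the members between types or clusters are not independent of how the cells were grouped.

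Microglia are the resident macrophages of the nervous system parenchyma. They arise early from the yolk sac, depend on signaling through the receptor for colony stimulating factor 1, and hold their identity through the transcription factor *Sall1* and through transforming growth factor beta. Border macrophages live around vessels, in the meninges and in the choroid plexus, share many genes with microglia and are usually told from them by the mannose receptor *Mrc1*, the chemokine *Pf4* and the membrane protein *Ms4a7*. The NH lies outside the blood-brain barrier, with fenestrated vessels and perivascular spaces among the axon endings.

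In the GRCm38 assembly, which is the mm10 build of the counts, the GENCODE annotation placed every member as a protein-coding gene. The microglia members were *Tmem119* (chr5:113793729-113800516, minus strand), *P2ry12* (chr3:59216272-59262871, minus), *P2ry6* (chr7:100937630-100974649, minus), *Fcrls* (chr3:87250758-87263738, minus), *Cx3cr1* (chr9:119901616-120069879, minus) and *Sall1* (chr8:89027235-89044162, minus). The border members were *Mrc1* (chr2:14229392-14332057, plus strand), *Pf4* (chr5:90772435-90773383, plus), *Ms4a7* (chr19:11321039-11336146, minus) and *Lyz2* (chr10:117277331-117282321, minus). *P2ry12* lies within *Med12l* of the opposite strand, and the annotated span of *Cx3cr1* overlaps *Wdr48*, *Ttc21a*, *Gorasp1*, *Csrnp1* and *Xirp1*, all of them in the count matrices. Whether the counting kept the strands apart is not given in the sources used here, so reads at these overlaps are uncertain. *Lyz2* has a near-identical neighbor, *Lyz1*, which held 5 UMIs in all kept cells against 336 for *Lyz2*.

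The promoters of 3 members that differed between the clusters are shown because they allow a look at the DNA next to the start of a gene that was higher in cluster a (*P2ry12*) and of genes that were higher in cluster b (*Ms4a7* and *Lyz2*). They are the RefSeq sequences of GRCm38.p6 before the start site, 5′ to 3′ on the strand of the gene, at chr3:59262986-59263235, chr19:11336147-11336396 and chr10:117282322-117282522, all minus strand. The last bases of the *Lyz2* window were left out where they run into its annotated exon. Capitals mark the letters GGAAGT, read on either strand, a core that factors of the ETS family such as PU.1 are known to bind.
P2ry12: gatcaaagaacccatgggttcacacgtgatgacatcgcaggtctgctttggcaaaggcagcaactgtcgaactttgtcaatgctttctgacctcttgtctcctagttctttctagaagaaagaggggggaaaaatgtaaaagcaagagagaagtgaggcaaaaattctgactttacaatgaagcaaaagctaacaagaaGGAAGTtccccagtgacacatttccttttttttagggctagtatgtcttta
Ms4a7: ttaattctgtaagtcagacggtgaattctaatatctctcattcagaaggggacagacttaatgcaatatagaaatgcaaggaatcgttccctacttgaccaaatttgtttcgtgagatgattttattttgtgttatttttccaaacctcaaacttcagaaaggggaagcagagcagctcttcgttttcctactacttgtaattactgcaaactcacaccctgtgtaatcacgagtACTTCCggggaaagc
Lyz2: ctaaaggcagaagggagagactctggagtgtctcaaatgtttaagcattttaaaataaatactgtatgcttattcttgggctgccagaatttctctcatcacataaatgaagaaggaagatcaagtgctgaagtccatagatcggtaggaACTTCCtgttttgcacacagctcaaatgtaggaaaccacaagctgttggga
The match began 51 bases before the start site in *P2ry12*, 15 bases before it in *Ms4a7* and 100 bases before it in *Lyz2*. The distance in *Lyz2* counts the 49 bases that were left out of the printed sequence. RefSeq promoters were at hand for 8 of the 10 members, of which *Sall1* and *Ms4a7* had more than a single start. In the 250 bases before a start, GGAAGT on either strand was present in 7 of the 8 (*P2ry12*, *Fcrls*, *Sall1*, *Mrc1*, *Pf4*, *Ms4a7* and *Lyz2*) and in 19.7% of 32851 promoters in the table. For every string, a member was counted if any of its starts matched, while the percent is of single promoters, so these are unlike counts. *Sall1* and *Ms4a7* also had starts without a match. GGAAGT was not present in the window of *Cx3cr1*, all 250 bases of which lie in its annotated exon. The windows searched for *Fcrls*, *Lyz2* and *Mrc1* overlapped annotated exons by 75, 49 and 22 bases. GGAAGT was 1 of 5 letter strings that were searched, with no rule set for choosing among them, and they overlap each other. GAGGAAGT was present in 1 member (*Pf4*) and 2.44% of all promoters, GAGGAA in 3 members and 23.3%, AGGAAG in 6 members and 29.5%, and GAAA followed, after 2 bases of any kind, by GAAA in 0 members and 2.98%. The strings match promoters of both groups of members, and a match is a description of the letters and not a binding site.

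Levels of all microglia members were highest in macrophage/microglia, in both pools. Values are counts per 1e6 UMIs (CPM) of the cells of a type summed per pool, followed by mean ± SD over the 2 pools. *Tmem119*, a membrane protein that in the brain marks microglia, was at 417 CPM in pool 1 and 408 CPM in pool 2 (413 ± 6.75, SD, n = 2). *P2ry12*, the ADP receptor by which microglia extend processes to damage, was at 282 and 287 CPM (285 ± 3.77, SD, n = 2). Both genes were nearly equal in the pools, and each had a single UMI in the 433 other kept cells. *P2ry6*, the UDP receptor linked to phagocytosis, was at 237 and 269 CPM (253 ± 22.6, SD, n = 2). *Fcrls*, an Fc receptor-like scavenger receptor, was at 632 and 361 CPM (496 ± 191, SD, n = 2). *Cx3cr1*, the receptor of the chemokine fractalkine, was at 2177 and 1928 CPM (2052 ± 176, SD, n = 2). *Fcrls* was the microglia member that differed most between the pools, and a single cell held 12 of its 56 UMIs in pool 1. *Sall1*, a zinc finger factor of microglia, was at 90.2 and 111 CPM (101 ± 14.8, SD, n = 2), from 8 and 12 UMIs.

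The border members were also highest in macrophage/microglia, but at unequal depth. *Lyz2*, lysozyme M of the myeloid lineage, was at 2120 and 1131 CPM (1625 ± 700, SD, n = 2). *Ms4a7* was at 564 and 195 CPM (379 ± 261, SD, n = 2). Both were higher in pool 1 in this type. *Pf4*, platelet factor 4, was at 56.4 and 111 CPM (83.8 ± 38.8, SD, n = 2), from 5 and 12 UMIs. *Mrc1*, the mannose receptor CD206, was at 45.1 and 27.8 CPM (36.5 ± 12.2, SD, n = 2), from 4 and 3 UMIs. These few UMIs leave the level of *Mrc1* and *Pf4* known only roughly, and no kept cell had more than 1 UMI of *Mrc1*.

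**Figure D1:**
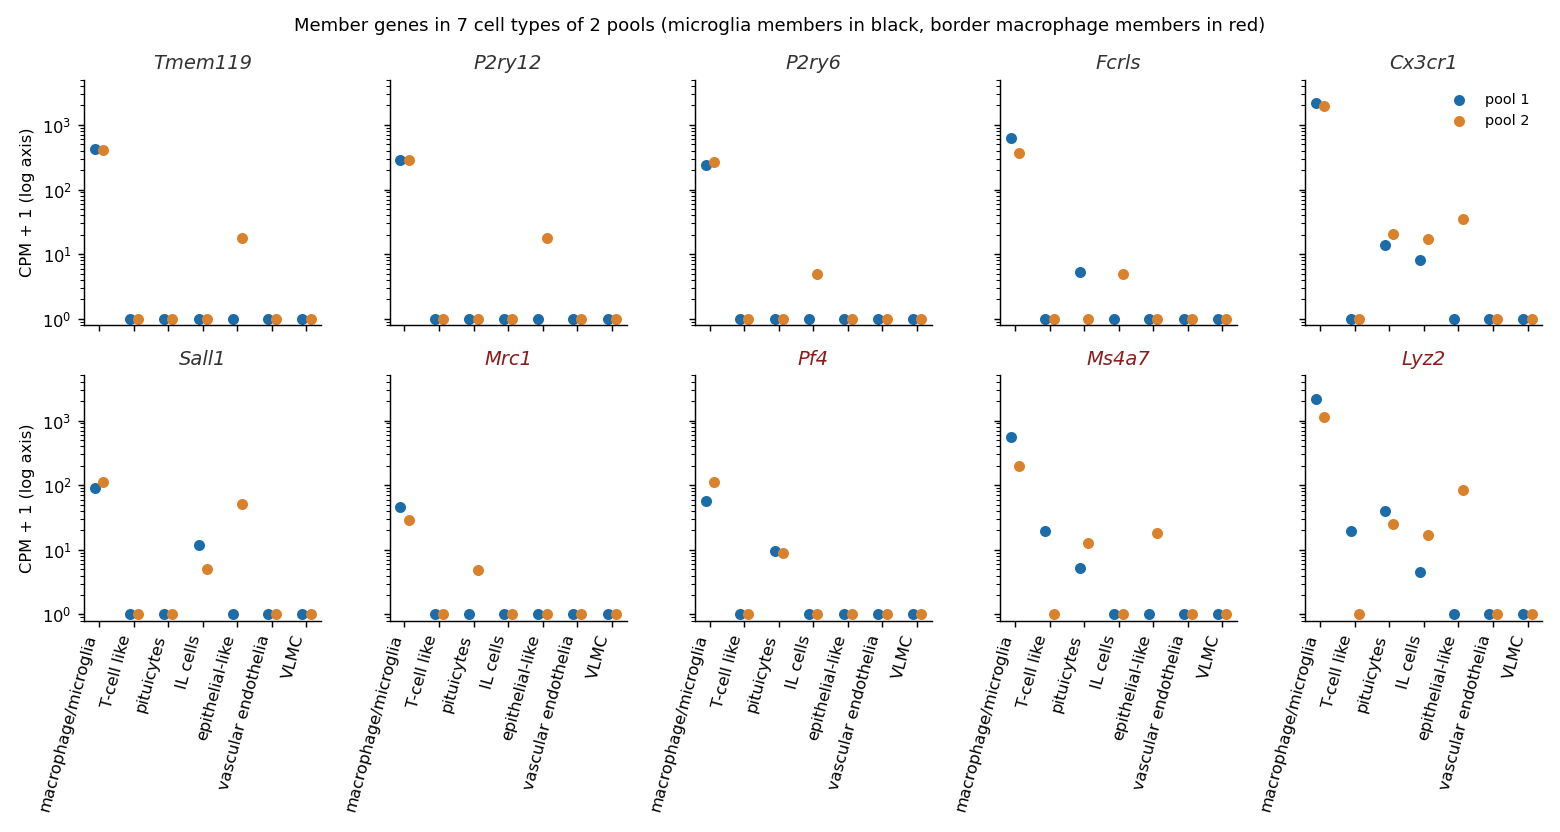
Level of each member (CPM + 1, log axis) in the 7 cell types, a point for each of the 2 pools. In every panel both points of macrophage/microglia lie above all other points.

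For each member the lower pool of macrophage/microglia was above the higher pool of every other type. Below macrophage/microglia, the types mostly overlapped in their ranges. In vascular endothelia 3 counts, which a count of 0 allows, would be 264 and 240 CPM in pools 1 and 2. In vascular and leptomeningeal cells they would be 353 and 199 CPM. These values are above the levels of *Sall1*, *Mrc1* and *Pf4* in macrophage/microglia. In 1 pool at least 1 of them is also above those of *P2ry12*, *P2ry6* and *Ms4a7*. Higher levels of these members in such small types could therefore be missed. Of the UMIs in all kept cells, macrophage/microglia held 81 of 82 for *Tmem119*, 56 of 57 for *P2ry12*, 50 of 51 for *P2ry6*, 95 of 97 for *Fcrls* and 401 of 417 for *Cx3cr1*. The share was lower for *Sall1*, with 20 of 27 UMIs (74.1%, exact Clopper-Pearson 95% interval 53.7% to 88.9%). The other 7 *Sall1* UMIs lay in 4 IL cells and 3 epithelial-like cells, each with 1 UMI. For the border members macrophage/microglia held 7 of 8 UMIs of *Mrc1*, 17 of 21 of *Pf4*, 71 of 77 of *Ms4a7* and 310 of 336 of *Lyz2*. In edgeR's quasi-likelihood test of macrophage/microglia against the mean of the other 6 types, 16.5% of the 4510 genes tested were called higher (adjusted p of at most 0.05 and a natural log fold change of at least 1). The 8 members that passed the filter on low counts were all called, and their Benjamini-Hochberg adjusted p in edgeR was at most 2.1e-07. They passed it only through macrophage/microglia, since their counts in the other types were 0 or low. That all 8 were called was therefore close to fixed in advance and is not comparable with the 16.5%. *Mrc1* and *Pf4* did not pass that filter. No fold is given, since most of the other types were at 0. DESeq2 called 7 of the 8 and gave no adjusted p for *Sall1*. With the cell types rebuilt by clustering without the members and the lists used here, 94 of the 95 cells fell into a single macrophage/microglia cluster of 97, and 7 of 7 members tested were called.

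Outside macrophage/microglia, 38 of the 433 kept cells had a UMI of any member, 65 UMIs in all, and 5 of these cells had UMIs of 2 or more members. A cell named pituicyte in pool 2, with 1483 UMIs, held 1 UMI of *Pf4*, 3 of *Ms4a7* and 3 of *Lyz2*, and 32 UMIs of the macrophage genes *C1qa*, *C1qb* and *C1qc*. An epithelial-like cell of pool 2 held 1 UMI each of *Tmem119*, *P2ry12* and *Sall1*. Shares of cells with a UMI were set against pituicytes, which should lack these genes. *Cx3cr1* was found in 84 of 95 macrophage/microglia (88.4%) and 7 of 196 pituicytes (3.57%), and *Lyz2* in 60 of 95 (63.2%) and 8 of 196 (4.08%). *Mrc1* was found in 7 of 95 (7.37%, 3.01% to 14.6%) and 1 of 196 (0.51%, 0.0129% to 2.81%), and *Pf4* in 6 of 95 (6.32%, 2.35% to 13.2%) and 3 of 196 (1.53%, 0.317% to 4.41%). The intervals of *Mrc1* just cleared each other and those of *Pf4* overlapped. The median depth was 1739 UMIs in macrophage/microglia and 2055.5 in pituicytes.

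The names of the 2 clusters in the deposited table raise the question of how the members differ between them. *Tmem119*, *P2ry12* and *Cx3cr1* were higher in cluster a, *Ms4a7* and *Lyz2* were higher in cluster b, and the levels of *P2ry6* and *Fcrls* overlapped with all cells kept. In the authors' means over both pools, given in UMIs per 10000 with no error, *Tmem119* was at 5.38 in cluster a and 1.65 in cluster b, *P2ry12* at 3.72 and 0.97, *Cx3cr1* at 29.5 and 8.93, and *Sall1* at 1.55 and 0.14. *P2ry6* was at 3.62 and 3.04, and *Fcrls* at 5.55 and 4.84. *Ms4a7* was at 0.92 and 10.6, *Lyz2* at 7.52 and 30.9, *Pf4* at 0.85 and 0.86, and *Mrc1* at 0.58 and 0.26. The microglia members fell into 4 genes with at least 3 times the mean in cluster a and 2 genes with a ratio under 1.2, and of the border members *Ms4a7* and *Lyz2* had the higher mean in cluster b, *Mrc1* in cluster a, and *Pf4* was about equal.

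By pool, *Tmem119* was at 654 and 488 CPM in cluster a of pools 1 and 2, and at 126 and 125 CPM in cluster b. *P2ry12* was at 470 and 345 CPM in cluster a, and at 50.3 and 83.6 CPM in cluster b. *Cx3cr1* was at 3208 and 2274 CPM in cluster a, and at 906 and 710.5 CPM in cluster b. For these 3 genes both values of cluster a lay above both of cluster b. *Sall1* was at 143 CPM in cluster a of both pools, and at 25.2 and 0 CPM in cluster b, where it had a single UMI. *P2ry6* was at 327 and 262 CPM in cluster a, and at 126 and 293 CPM in cluster b. *Fcrls* was at 715 and 357 CPM in cluster a, and at 529 and 376 CPM in cluster b. With all cells kept, the values of *P2ry6* and *Fcrls* overlapped, and the pools differed in direction for both. *Ms4a7* was at 204 and 59.5 CPM in cluster a, and at 1007 and 669 CPM in cluster b. *Lyz2* was at 674 and 822 CPM in cluster a, and at 3902 and 2215 CPM in cluster b. Both of these border members were higher in cluster b in each pool without overlap. *Mrc1* was at 61.3 and 35.7 CPM in cluster a, and at 25.2 and 0 CPM in cluster b. *Pf4* was at 40.9 and 131 CPM in cluster a, and at 75.5 and 41.8 CPM in cluster b. *Mrc1* and *Pf4*, the genes most used to name border macrophages, were not seen to be higher in cluster b with all cells kept. The direction of *Pf4* differed between the pools. *Mrc1* had 6 of its 7 UMIs in cluster a, which also held 132927 of the 196578 UMIs of macrophage/microglia. In cluster b, 3 counts, which a count of 0 allows, would be 75.5 and 125 CPM. That is above the levels of *Mrc1* in cluster a, so the depth of cluster b was too low to compare it.

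**Figure D2:**
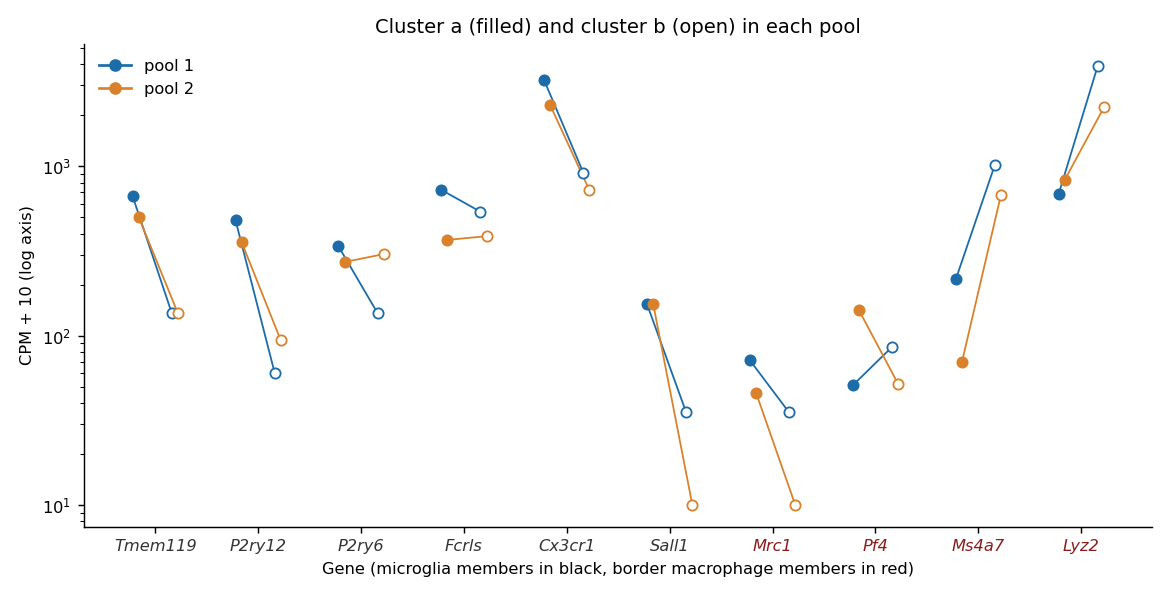
Level of each member (CPM + 10, log axis) in cluster a (filled) and cluster b (open), with a line for each pool and all cells kept. *Tmem119*, *P2ry12* and *Cx3cr1* fall from a to b and *Ms4a7* and *Lyz2* rise in both pools, while the lines of *P2ry6*, *Fcrls* and *Pf4* run in opposite directions in the pools.

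In edgeR's quasi-likelihood test over 5136 genes, 0.974% were called higher in cluster a and 0.623% higher in cluster b, at an adjusted p of at most 0.05. Of 8 members tested, 3 were called higher in cluster a and 2 in cluster b. The log2 fold change of a over b was 2.46 ± 0.574 (SE) for *Tmem119* (edgeR adjusted p = 0.00315), 2.95 ± 0.759 for *P2ry12* (adjusted p = 0.0113) and 2.04 ± 0.401 for *Cx3cr1* (adjusted p = 0.00011). It was -2.55 ± 0.506 for *Ms4a7* (edgeR adjusted p = 0.000133) and -1.72 ± 0.382 for *Lyz2* (adjusted p = 0.00138). *P2ry6* (0.92 ± 0.649), *Fcrls* (0.45 ± 0.445) and *Sall1* (3.36 ± 1.30) did not pass, with edgeR adjusted p of 0.765, 0.846 and 0.265. The median log2 fold change of all genes tested was 0.246, and scaling by library size alone, under which it was 0, called 20 genes higher in a and 44 higher in b against 50 and 32. These calls depend on the tool. DESeq2 called only *Cx3cr1* of the members (adjusted p = 0.000276), with adjusted p of 0.268 for *Tmem119*, 0.137 for *Ms4a7* and 0.0576 for *Lyz2*, none for *P2ry12*, and the same directions. The pools are the only replicates. The edgeR p-values rest on a spread shared over all 11 clusters, so they do not measure how well the pools agree for a gene in clusters a and b. *Ly6c2*, called higher in cluster b, was there at 629 CPM in pool 1 and 0 in pool 2.

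How the cells were split also mattered. When macrophage/microglia were split into 2 clusters without the 10 members among the variable genes, 87 of 95 cells lay on the authors' side. There 5 members were called, 3 higher in a and 2 in b, against 47 and 36 of all 5340 genes tested. When the wider gene lists were left out as well, 7 cells were set apart from 88. There *Ms4a7* (log2 fold change 8.05) and *Lyz2* (1.79) were called higher in the large cluster instead. In that split the median log2 fold change of the 5543 genes tested was itself 1.21, against 0.246 with the authors' clusters. The 7 cells came from cluster b in 6 cases, and held 786 UMIs of major histocompatibility complex (MHC) class II genes, 107 of monocyte and neutrophil genes and 36 of dendritic cell genes among 23612 UMIs. The monocyte gene *Plac8* and the dendritic cell gene *Cd209a* were among those that stood out most there, with 58 of 59 and 15 of 15 UMIs of all macrophage/microglia. A single cell held 49 of the *Plac8* UMIs.

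Cluster b was then looked at without cells that had a UMI of a monocyte or dendritic cell marker (*Ly6c2*, *Plac8*, *Ccr2*, *Chil3*, *Flt3*, *Xcr1*, *Cd209a*, *Clec9a* or *Ccr7*), a choice made after these values were seen. Of the 26 cells of cluster b, 2 of 14 in pool 1 and 3 of 12 in pool 2 had such a UMI, against 0 of 27 and 2 of 42 in cluster a. Those 5 cells of cluster b held 125 UMIs of the markers, 84 of them in a single cell of pool 1. All 25 *Ly6c2* UMIs were in a single cell of pool 1, and a single cell held 49 of the 56 *Plac8* UMIs of cluster b in that pool. Their microglia members were at 0 UMIs in pool 1 and at 2 UMIs, both *Cx3cr1*, in pool 2. They had 0 UMIs of *Ms4a7*, *Mrc1* and *Pf4*, and 23 and 2 UMIs of *Lyz2*. Without them, *Ms4a7* in cluster b was at 1441 and 1071 CPM and *Lyz2* at 4755 and 3413 CPM, both above the values with them. *Tmem119* was at 180 and 201 CPM, *P2ry12* at 72.0 and 134 CPM and *Cx3cr1* at 1297 and 1004 CPM, still below both values of cluster a. In this setting edgeR called 3 members, *Ms4a7* (log2 fold change -2.97, adjusted p = 1.9e-06), *Lyz2* (-1.96, adjusted p = 0.000194) and *Cx3cr1* (1.69, adjusted p = 0.00744), and *Tmem119* (2.05) and *P2ry12* (2.54) had adjusted p of 0.067 and 0.12. *Fcrls* was at 756 and 602 CPM and was not called (log2 fold change 0.03, edgeR adjusted p = 1).

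Single cells weighed on some of these levels. A cell of cluster b in pool 1, with 4351 UMIs, held 84 of the 155 *Lyz2* UMIs there and 12 of the 21 *Fcrls* UMIs. Without it, cluster b of pool 1 was at 2007 CPM of *Lyz2* in place of 3902 and at 254 CPM of *Fcrls* in place of 529, and *Lyz2* was still above both values of cluster a. A cell of cluster a in pool 2 held 10 of the 11 *Pf4* UMIs there, and without it the level was 12.2 CPM in place of 131. The order of *Pf4* between the clusters then turned, with cluster b higher in both pools (75.5 and 41.8 CPM against 40.9 and 12.2 CPM), on 4 against 3 UMIs. A cell of cluster b in pool 2, with 1099 UMIs, held 4 of the 7 *P2ry6* UMIs there, and without it the level was 131 CPM in place of 293. Both values of *P2ry6* in cluster a (327 and 262 CPM) then lay above both of cluster b (126 and 131 CPM), and the log2 ratio of CPM was 1.13 in place of 0.47.

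UMIs of both groups of members were often found in the same cell. Of the 95 macrophage/microglia, 62 had a UMI of both groups (65.3%, exact Clopper-Pearson 95% interval 54.8% to 74.7%), 26 of microglia members only, 3 of border members only and 4 of neither. In pool 1 it was 29 of 41 cells (70.7%) and in pool 2 33 of 54 (61.1%). All 3 cells with border members only and all 4 with neither were in cluster b. This share followed the depth and the genes counted. It was 47.4% with each cell thinned to 1000 UMIs, 38.9% when 2 UMIs of each group were asked for, and 22.1% without *Lyz2* and *Cx3cr1*, the members with most UMIs. Without those 2 genes, 7 of 69 cells of cluster a (10.1%, 4.18% to 19.8%) and 14 of 26 of cluster b (53.8%, 33.4% to 73.4%) held both groups. By pool these were 3 of 27 and 4 of 42 cells in cluster a, and 9 of 14 and 5 of 12 cells in cluster b. The median cell had 1654 UMIs in cluster a and 1959.5 in cluster b. With each cell thinned to 1000 UMIs, it was 6 of 69 cells of cluster a (8.70%, 3.26% to 18.0%) and 8 of 26 of cluster b (30.8%, 14.3% to 51.8%), and in pool 2 alone 3 of 42 against 2 of 12 cells, with intervals that overlapped. No test of this difference over samples was made, and an exact two-sided permutation test of 2 pools against 2 cannot go below a p of 0.333.

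**Figure D3:**
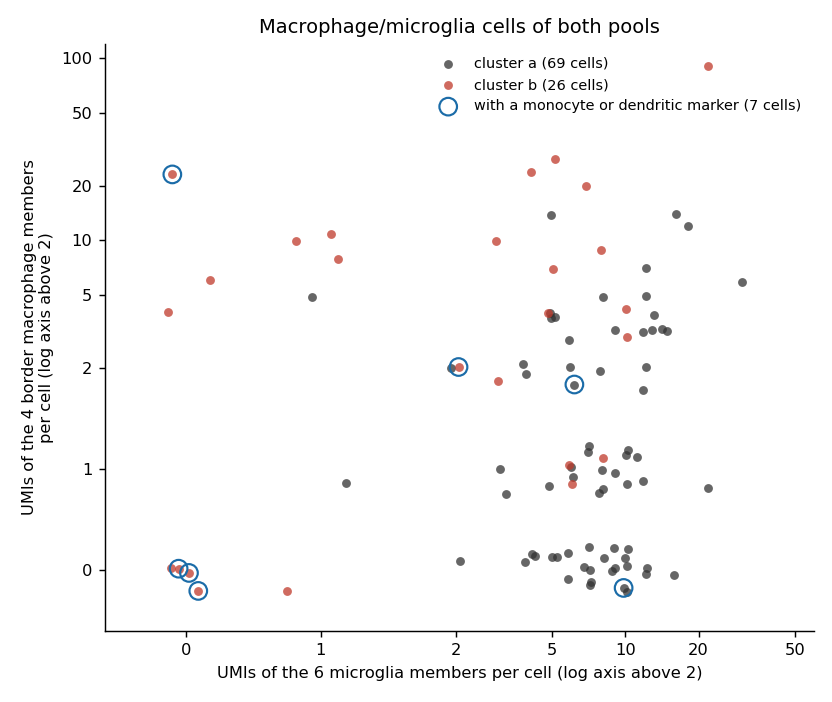
UMIs of the microglia members (x axis) and of the border members (y axis) in each of the 95 macrophage/microglia, on axes that are linear to 2 and logarithmic above, with a small random shift so that cells do not hide each other. Cells of cluster a lie mostly to the right and low, 65 of 69 having more microglia than border UMIs; cells of cluster b lie higher, and the 5 ringed cells of cluster b, which have a monocyte or dendritic cell marker, lie at the left.

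More microglia than border UMIs were found in 65 of the 69 cells of cluster a and in 8 of the 26 cells of cluster b, where 13 had more border UMIs and 5 had equal numbers. Border members made up 15.1% and 21.3% of the member UMIs in cluster a of pools 1 and 2, and 74.0% and 64.8% in cluster b. This share was largely set by *Lyz2*, which held most border UMIs. The 10 cells with a UMI of *Mrc1* or *Pf4* were 6 of the 69 cells of cluster a (8.70%, 3.26% to 18.0%) and 4 of the 26 of cluster b (15.4%, 4.36% to 34.9%), with overlapping intervals. Of these 10 cells, 9 had a UMI of *Cx3cr1*, 7 of *Ms4a7*, 4 of *P2ry12* and 3 of *Tmem119*. All 6 cells with *Pf4* also had *Ms4a7*, which was found in 21 of the 95 cells. All 38 cells with *P2ry12* and all 7 with *Mrc1* had a UMI of *Cx3cr1*, which was found in 84 of the 95.

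Wider lists of the same cell types were counted next. Of 20 further microglia genes, 19 were tested between the clusters, 8 were called higher in cluster a and 0 in cluster b (median log2 fold change 1.80, against 0.246 over all genes tested). *Sparc*, a matrix protein, was at 1001 and 976 CPM in cluster a and at 0 and 41.8 CPM in cluster b. It passed the test, with an edgeR adjusted p of 2.1e-11, while *Cst3* and *Mef2c* did not (0.2 and 0.184). Of 20 further border macrophage genes only 7 were tested, 1 was called higher in cluster b and 0 in cluster a (median -0.07). That gene was *Ms4a6c*, at 143 and 47.6 CPM in cluster a and 680 and 418 CPM in cluster b. *Apoe* was at 14710 and 7049 CPM in cluster a and 15356 and 12579 CPM in cluster b, *Maf* and *Stab1* had adjusted p of 0.476 and 1, and none of these 3 passed. Some markers by which border macrophages are often named were at or near 0 in both clusters: *Lyve1*, *Cbr2*, *Ccl8*, *Colec12* and *Cd209f* had 0 UMIs, *Cd163* had 4, *F13a1* 3 and *Folr2* 2. In cluster b 3 counts would be 75.5 and 125 CPM, so low levels there could be missed. Others were higher in cluster b in both pools but were not called: *Ms4a6b* (302 and 167 against 61.3 and 47.6 CPM), and *Cd36* (101 and 125 against 20.4 and 23.8 CPM) and *Clec12a* (302 and 41.8 against 0 CPM), which were not tested. *Maf* and *Gas6* were higher in cluster a in both pools.

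The MHC class II genes, which present antigen, were higher in cluster b. Of 7 genes 6 were tested and 4 were called higher in cluster b (*Cd74*, *H2-Aa*, *H2-Eb1* and *H2-Ab1*). *Cd74*, the invariant chain, was at 388 and 1262 CPM in cluster a and 8962 and 16550 CPM in cluster b. The list summed to 817 and 2250.5 CPM in cluster a and 18100.3 and 34520.2 CPM in cluster b, so that no pool overlapped. The 21 cells of cluster b without monocyte or dendritic cell markers were at 8861 and 11980 CPM of *Cd74*. They were at 2161 and 3949 CPM of *H2-Aa*, against 3273 and 5851 CPM with all cells kept. *H2-Eb1* was at 2341 and 2878 CPM against 3600 and 5099 CPM, and *H2-Ab1* at 2161 and 3815 CPM against 1964 and 6143 CPM. The cells with markers held 70 of the 130 *H2-Aa* UMIs of cluster b in pool 1 and 81 of 140 in pool 2. All these levels were still above those of cluster a. Of 20 genes shared by all macrophages, 20 were called in macrophage/microglia against the other types, where 16.5% of all genes tested were called. They were listed as genes of macrophages, so this was close to fixed in advance. Between the clusters, 6 of the 20 were called higher in cluster a and 0 in cluster b, against 0.974% and 0.623% of all genes tested. *C1qa* was at 6763 and 6108 CPM in cluster a and 4909 and 2508 CPM in cluster b, and did not pass (adjusted p = 0.139).

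**Figure D4:**
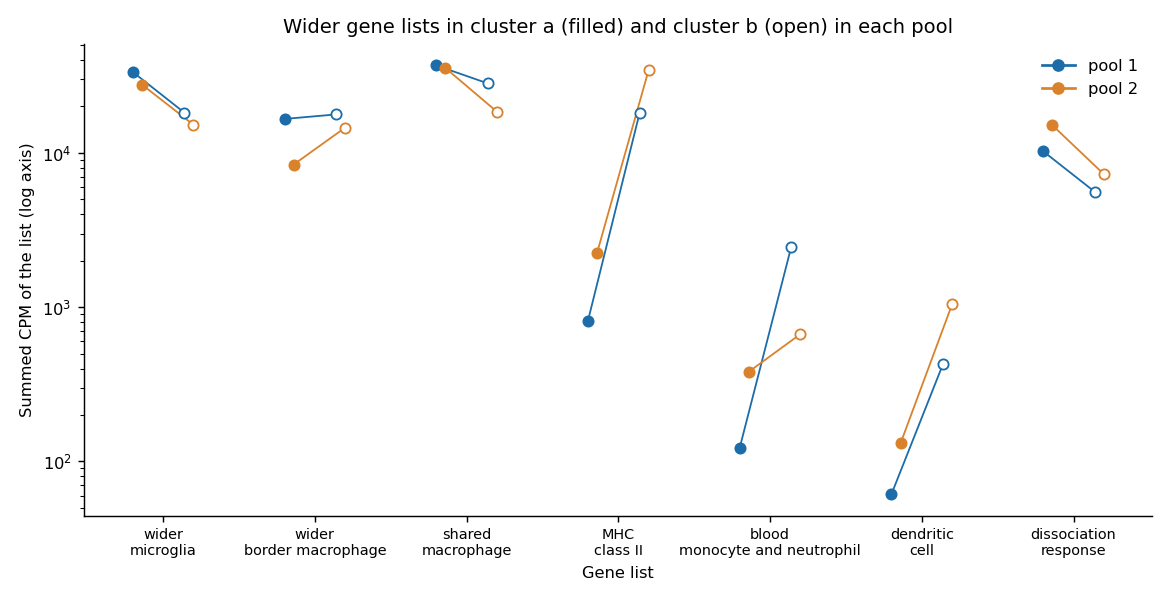
Summed level of the wider gene lists (CPM, log axis) in cluster a (filled) and cluster b (open), with a line for each pool. The MHC class II list rises from 817 and 2250.5 CPM in cluster a to 18100.3 and 34520.2 CPM in cluster b, the wider microglia list falls in both pools, and the wider border macrophage list differs less. Most of the wider microglia sum is *Cst3*, with 23005 of 33425 and 17218 of 27708 CPM in cluster a. Most of the wider border macrophage sum is *Apoe*, with 14710 of 16590 and 7049 of 8395 CPM there. Neither gene was called between the clusters.

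Markers of other blood cells were counted in the same clusters. The monocyte and neutrophil list summed to 123 and 381 CPM in cluster a and 2467 and 669 CPM in cluster b, with *Plac8* and *Ly6c2* called of 5 genes tested and *Retnlg*, *Mmp9*, *Cxcr2*, *Ly6g* and *Ace* among those at 0. The dendritic cell list summed to 61.3 and 131 CPM in cluster a and 428 and 1045 CPM in cluster b, with none of its 10 genes passing the filter and *Irf4* at 0. The immediate early and heat shock genes that rise during dissociation were higher in cluster a for 5 of 11 genes tested (*Jun*, *Junb*, *Ier2*, *Zfp36* and *Hspa1a*), and the list summed to 10236 and 15110.4 CPM in cluster a and 5589 and 7272 CPM in cluster b. The part of the monocyte and dendritic cell genes in the differences of the members was not tested, other than by leaving out the 5 cells. The part of the dissociation genes was not tested. In the test of macrophage/microglia against the mean of the other types, 9 of the 11 dissociation genes were called, against 16.5% of all genes tested. That list summed to 8154 and 13372 CPM in macrophage/microglia and to more, 8814 and 20740 CPM, in vascular endothelia. It was at 9201 and 8832 CPM in IL cells and 7351 and 12504 CPM in epithelial-like cells. Only T-cell-like cells, pituicytes and vascular and leptomeningeal cells were lower in both pools without overlap. A high level of these genes was thus not particular to macrophage/microglia. Of the wider lists, 17 of 17 microglia genes tested and 6 of 7 border macrophage genes tested were called. Those lists were chosen as genes of such cells, so their calls were close to fixed in advance.

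By the largest fold among the genes called, *Adgrg1*, *A930007I19Rik*, *Slc1a3*, *Sparc* and *Egr2* led cluster a, and *Vim*, *Ly6c2*, *Ifi203*, *Tnip3* and *S100a4* led cluster b. *Adgrg1*, an adhesion G protein-coupled receptor, was at 143 and 238 CPM in cluster a and at 0 in both pools of cluster b. *Vim*, the intermediate filament vimentin, was at 0 in both pools of cluster a and at 378 and 418 CPM in cluster b. *Ly6c2* was in pool 1 alone, at 629 CPM from the single cell named above. Of the other leading genes of cluster b, *Vim* had 24 UMIs in the 7 cells set apart above and 1 in the other 88 cells, *S100a4* had 19 and 0, and *Tnip3* had 18 and 0.

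The list of ligands and partners of the members summed highest in macrophage/microglia (846 and 899 CPM in pools 1 and 2), followed by vascular endothelia (793 and 480 CPM). Some ligands, however, had 0 UMIs in macrophage/microglia. *Cx3cl1*, which encodes fractalkine, had 0 UMIs in macrophage/microglia and means of 171 CPM in epithelial-like cells, 168 in vascular endothelia, 82.5 in IL cells and 30.6 in pituicytes. *Csf1*, the growth factor of macrophages, had 0 UMIs there and means of 58.8 CPM in pituicytes and 66.2 in vascular and leptomeningeal cells (VLMC). *Il34*, its partner ligand, had 0 UMIs there and a mean of 58.9 CPM in VLMC. The VLMC means rest on very few UMIs, since the whole list summed there to 118 and 199 CPM in pools 1 and 2. In VLMC 3 counts would be 353 and 199 CPM. The mean of *Cx3cl1* in vascular endothelia was also under the 264 and 240 CPM of 3 counts. Of 15 such genes 6 were tested against the other types and 3 were called higher in macrophage/microglia. Among them were *Tgfb1* (216 ± 34.8 CPM, SD, n = 2) and the ATP receptor *P2rx4* (195 ± 27.0 CPM, SD, n = 2). *P2ry13*, the neighbor and relative of *P2ry12*, was at 94.1 ± 37.3 CPM (SD, n = 2) and at 0 in all other types.

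Genes with the most similar pattern over the 11 deposited cluster means were found by Pearson's r of log2(value + 1), among 4734 genes. The 11 columns share libraries, and 9 of them are near 0 for the members, so that r is a description of a contrast between few columns. *Tmem119* was most like *Irf5*, *Fcgr4* and *P2ry12* (r of 0.998 to 0.997), and *P2ry12* like *Ltc4s*, *Fcgr4* and *Ptafr* (0.999 to 0.997). *P2ry6* and *Fcrls* were most like each other (0.999), followed by *Tbxas1* and *Slamf9*. *Cx3cr1* was most like *Trem2*, *Itgam* and *Slc11a1* (0.998 to 0.996), and *Sall1* like *A930007I19Rik* (0.984), *Frmd4b* and *Gng10* (0.928). *Ms4a7* was most like *Bcl2a1a*, *Dnase1l3* and *Ch25h* (0.992 to 0.989), and *Lyz2* like *Adgre1*, *Cxcl9* and *Siglece* (0.995 to 0.990). *Mrc1* was most like *Irf5*, *Fcgr4* and the microglia member *Tmem119* (0.998 to 0.997), and *Pf4* like *Cd68*, *C1qb* and *Man2b1* (0.990 to 0.969). The pattern of *Mrc1* rests on 8 UMIs in all kept cells, 6 in cluster a and 1 in cluster b. With a pseudocount of 0.1, *Irf5* and *Tmem119* were no longer among the 3 genes most like *Mrc1*, so that likeness is uncertain.

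The matrix of pool 1 listed every barcode, which shows how much of each member lay outside the kept cells. Macrophage/microglia held 33.4% of all microglia member UMIs of pool 1 (340 of 1019, exact Clopper-Pearson 95% interval 30.5% to 36.4%) and 18.8% of all border member UMIs (247 of 1315, 16.7% to 21.0%). For *Cx3cr1* it was 193 of 489 UMIs and for *Tmem119* 37 of 118. For *Pf4* it was 5 of 103 UMIs (4.85%, 1.59% to 11%) and for *Mrc1* 4 of 54 (7.41%, 2.06% to 17.9%), lower than for the microglia members without overlap of the intervals with that of the whole microglia group. In the 157608 barcodes with 1 to 50 UMIs, which hold free RNA, *Pf4* was at 31.7 CPM and *Mrc1* at 14.8 CPM, which is 56.2% and 32.8% of their level in macrophage/microglia of pool 1. The same ratio was 5.32% for *Tmem119*, 3.01% for *Cx3cr1*, 7.78% for *Ms4a7* and 8.27% for *Lyz2*. The shares of *Mrc1* and *Pf4* in macrophage/microglia were the lowest of the 10 members, although the interval of *Mrc1* met those of *P2ry12*, *Sall1*, *Ms4a7* and *Lyz2*, and that of *Pf4* met that of *Sall1* (9.83% to 38.2%). Among the 1500 deepest barcodes, those left out by the limits held 195 UMIs of microglia members and 185 of border members in pool 1, and 136 and 219 in pool 2. Fewer cells of a type captured and less RNA per cell cannot be told apart here.

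**Figure D5:**
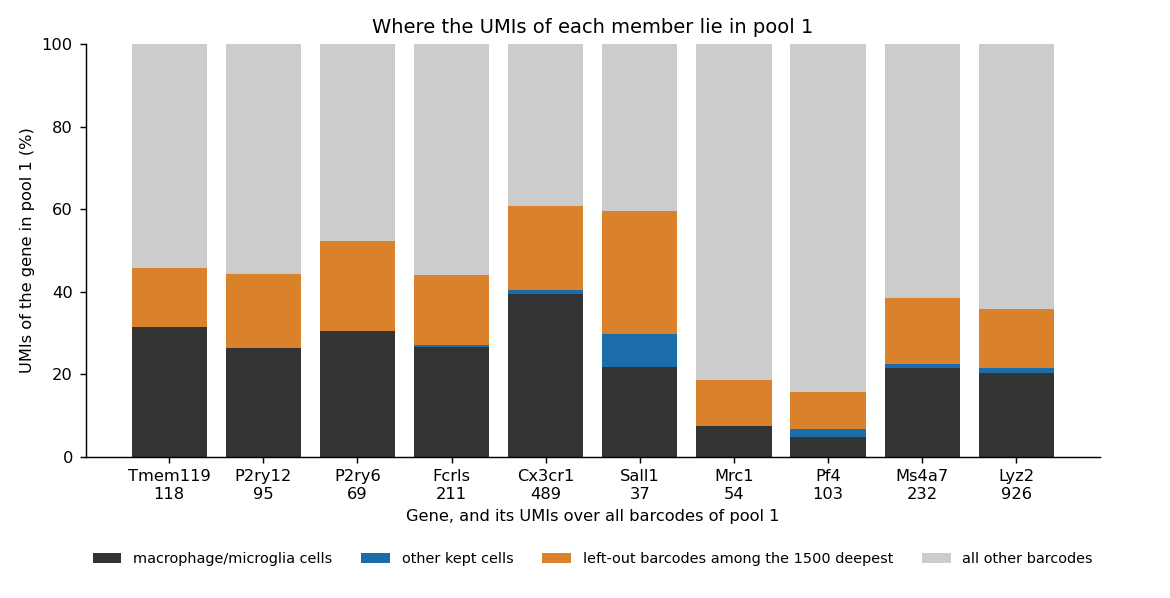
Share of the UMIs of each member in pool 1 (y axis, percent of the number printed under the gene) by kind of barcode. Macrophage/microglia hold 4.85% for *Pf4* and 7.41% for *Mrc1*, against 20.3% to 39.5% for the other members.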

How the data were processed

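NH cells of 2 pools were measured by scRNA-Seq. The authors made the deposited UMI counts with Cell Ranger (mm10) at 1500 forced cells and did not normalize them. The table of 11 cluster means that the authors deposited holds linear UMI values scaled to 10000 per cell, averaged with Seurat over both pools, with no error. Cells were kept with over 1000 and under 10000 UMIs, 400 to 5000 genes and under 25% mitochondrial UMIs. Each cell was given its cluster by non-negative weights in the deposited means (lowest own weight 0.981), and 11 clusters were merged into 7 types. Of the 15025 genes, 349 had a mean that differed by over 0.05 from that of the assigned cells. Scrublet (scanpy 1.11.5) marked 5 of 528 cells as doublets, 1 of them in macrophage/microglia, and none was removed. The pools shared 0 kept barcodes.

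Counts were summed per pool and type or cluster and tested with edgeR 4.0.16 (R 4.3.3), with TMM, on genes past a filter (count 5, total 15), all groups sharing 1 spread. DESeq2 1.42.0, with size factors from positive counts and a local fit, was an alternative. The pools pair the sums, which come from the same mice (correlation of pool differences of 2 types -0.0316 to 0.143). The fit was tested on simulated data. Intervals are exact Clopper-Pearson at 95% and cover counting error only. Ratios of CPM had 10 CPM added. Named genes are the members, the 4 genes of a list with the highest level, the 5 leading genes of each cluster and the 3 most similar genes per member, and some genes under this rule are not reported here. The members and lists were chosen with earlier results of these data known.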

Additional observations from a re-analysis of the deposited data

Results flagged for a closer look

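In pool 1, where every barcode was listed, 96 *Pf4* UMIs and 50 *Mrc1* UMIs lay in barcodes outside the kept cells, against 5 and 4 UMIs in macrophage/microglia. They are flagged because the comparisons above use kept cells alone and both numbers are above the 3 counts that a count of 0 allows. Other members met this too, with 332 UMIs of *Lyz2*, 83 of *Ms4a7* and 82 of *Fcrls* in barcodes of 1 to 50 UMIs. The numbers by themselves therefore do not single out *Pf4* and *Mrc1*. Of the UMIs outside the kept cells, 87 of *Pf4* and 44 of *Mrc1* lay in barcodes below the 1500 deepest. In pool 2, of which only 1500 barcodes were at hand, the left-out barcodes held 12 UMIs of *Pf4* and 9 of *Mrc1*, and macrophage/microglia held 12 and 3. The source of these UMIs was not tested.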

How the results depend on the processing

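The number of members called higher in macrophage/microglia was between 7 and 10 in all 6 alternatives (8 of 8 tested as reported). It was 7 of 8 by DESeq2 and otherwise all of the members tested (7, 8 or 10). These calls were close to fixed in advance, so their number is not a measure of stability. Between the clusters, 5 members were called as reported, 1 by DESeq2, 3 with a mitochondrial limit of 10%, 4 with library size alone, 5 without the filter on low counts and 5 with the pool as a replicate block, which changed no member's call. By edgeR, *P2ry12* lost its call with library size alone (log2 fold change 2.63, adjusted p = 0.0527), and *P2ry12* (adjusted p = 0.0683) and *Tmem119* (0.0538) lost theirs, with no change of direction, at the 10% limit. All genes called higher in a and in b numbered 9 and 7 by DESeq2, 9 and 28 at the 10% limit and 20 and 11 without the cells named next, against 50 and 32, and the 10% limit called 405 genes higher in macrophage/microglia against 745. The members called were 3 without the cells of cluster b with monocyte or dendritic cell markers, a setting added after the data were seen. The split without members and list genes called 7, but turned *Ms4a7* to 8.05 and *Lyz2* to 1.79, with 209 and 31 genes called in all. Its median log2 fold change over all genes tested was 1.21. That split was planned, but its method was changed after hierarchical clustering set 1 cell apart from 94, and the split without the members alone, which called 5, was added afterwards. The share of cells with both groups moved from 65.3% to 47.4% on thinning, 38.9% at 2 UMIs and 22.1% without *Lyz2* and *Cx3cr1*, and was 61.1% to 70.7% in single pools and 66.7% at the 10% limit. With a pool left out no test could be made. The log2 ratio of CPM then ran from -0.15 to 1.31 for *P2ry6*, from -0.072 to 0.43 for *Fcrls* and from -0.75 to 1.44 for *Pf4*, and without their top cells that of *Pf4* was -0.91 and that of *P2ry6* 1.13, an alternative added after the data were seen. Of 30 similar genes named, 15 were also found with a pseudocount of 0.1. Depth limits *Mrc1*, *Pf4* and *Sall1*, with 7 to 20 UMIs in macrophage/microglia.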
